A study of Arabidopsis lyrata subsp. lyrata with 8 samples.

Results

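In Arabidopsis lyrata ssp. lyrata, a close perennial kin of A. thaliana, the 4 flower bud arrays fell into the pairs 1 with 2 and 3 with 4, and the genes that separated the pairs are described here. A gene model counted as separating them when its mean level on arrays 3 and 4 was at least 4-fold above or below its mean level on arrays 1 and 2. Of 32371 gene models measured, 25943 were well above background on both arrays of at least 1 pair, and 453 of these (1.75%) were at least 4-fold apart. Arrays 3 and 4 were higher for 324 of them (1.25%) and arrays 1 and 2 for 129 (0.497%). The genes were thus chosen by these differences between the pairs, which are given as sizes without a test.

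The study measured roots and flower buds of 6-week-old plants in hydroponic culture with 4 replicates each and no treatment named in the labels, from seeds stratified for 7 days. The labels call the line col 0, and each replicate was tissue pooled from 8 to 10 plants. Each RNA was labelled with Cy3 and hybridised to 1 array, and all 8 arrays shared a single slide and scan, with the roots in slide row 1 and the buds in slide row 2. The labels number the bud replicates from 1 to 4 and do not mention pairs. In their row, bud arrays 1 and 2 lay at positions 1 and 3 and arrays 3 and 4 at positions 2 and 4, and the part of slide position in the differences was not tested.

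Flower buds hold sepals, petals, stamens and carpels at several stages of growth. Inside the young anther the tapetum, a layer of secretory cells, feeds the developing pollen, supplies the sporopollenin of its wall and later breaks down, so its genes are active for a short span of bud growth. A regulatory chain that includes the transcription factors TDF1, AMS and MS1 drives this programme in A. thaliana. The names of some gene models include an A. thaliana locus code, and all gene names and roles below are taken from that A. thaliana gene. Codes beginning with AT2G belong to A. thaliana chromosome 2.

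Levels are log2 of the processed spot signal relative to the 75th percentile of the array, so 0 is a bright spot and values near -10 lie at the background. A difference is the mean of arrays 3 and 4 minus the mean of arrays 1 and 2 on the log2 scale, where 2 stands for 4-fold. Arrays 1 and 2 differed from each other by a median of 0.04 over the 25943 models and by at least 4-fold for 19. Arrays 3 and 4 differed by a median of 0.05 and by at least 4-fold for 55. Across the pairs the same counts were 423 to 516, and among the 4 root arrays 59 to 513.

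Set against the scatter of repeated spots within an array, the variance of the difference was 0.688 times that scatter for arrays 1 and 2 and 0.792 times for arrays 3 and 4. Across the pairs it was 6.05 to 13.1 times, and between root arrays 3.38 to 16.2 times. Arrays within a pair thus differed by less than the scatter of spots, and each pair was counted as 1 sample. The comparison is of 1 sample with 1, and its differences have no replicate check. The pairs did not overlap for 81.6% of all 25943 models and for 450 of the 453, and the difference lay above 0 for 49.1% of all models.

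**Figure D1:**
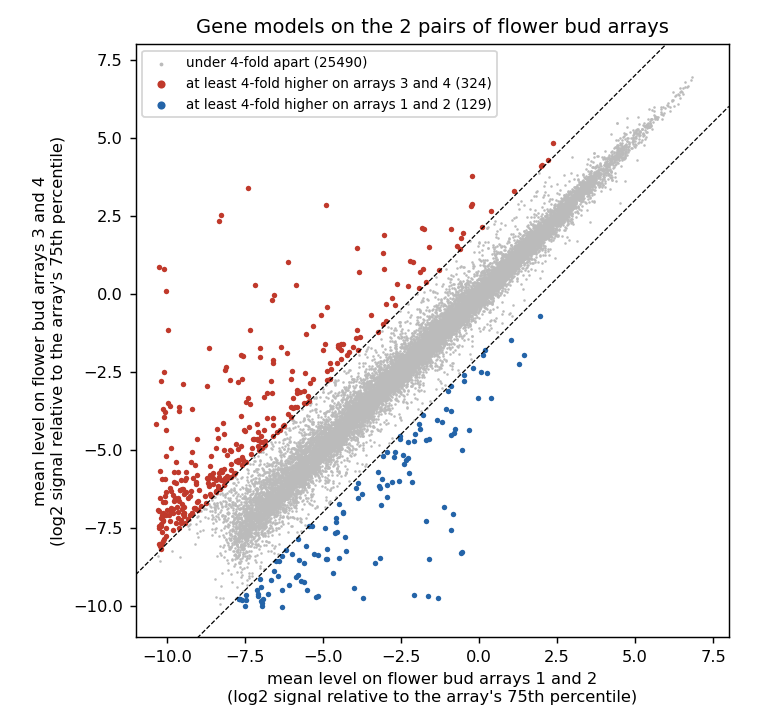
Mean level of each gene model on flower bud arrays 1 and 2 (x axis) against arrays 3 and 4 (y axis), both as log2 signal relative to the 75th percentile of the array. Each point is 1 of 25943 gene models, and the dashed lines mark 4-fold. The 324 models higher on arrays 3 and 4 (red) lie mostly at the left, at low levels on arrays 1 and 2, while the 129 higher on arrays 1 and 2 (blue) start from higher levels.

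The models higher on arrays 3 and 4 were largely dim on arrays 1 and 2. Their median level was -8.10 on arrays 1 and 2 and -4.78 on arrays 3 and 4. For the models higher on arrays 1 and 2 the median was -3.32 on those arrays and -7.30 on arrays 3 and 4. Of the 453, 212 were well above background on all 4 bud arrays, beside 24930 of all 25943 models. The 212 were 147 in the first direction and 65 in the second. For 207 the dim pair was not well above background on either array, so that their fold is uncertain and a lower bound was worked out. It rests on the lowest signal called well above background on an array. Brighter spots can fail that call, so folds given below as bounds are approximate and not strict limits. That bound was at least 4-fold for 154 of them and under 4-fold for 53. The differences as measured, dim values included, ran from -8.41 to 11.10, with medians of 2.76 and -2.85 in the respective directions. Without array 3, when the filter rested on array 4 alone, 730 models were at least 4-fold higher on array 4. After a normexp background correction, which damps dim spots, 117 and 54 were at least 4-fold higher on arrays 3 and 4 and on arrays 1 and 2.

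Genes of the anther were among those higher on arrays 3 and 4. Of 34 gene models on 3 lists of tapetum regulators, pollen wall enzymes and pollen coat proteins, 10 were at least 4-fold higher on arrays 3 and 4 (29.4%, beside 1.25% of all models) and 0 on arrays 1 and 2. At least 2-fold higher on arrays 3 and 4 were 20 of 34, beside 3.99% of all models. The lists were drawn up with earlier results of these data known, so these counts are a description. The medians of these lists were 1.34 for 11 regulators, 1.71 for 14 wall genes and 1.71 for 9 coat and secreted proteins, beside -0.01 for all models. In whole buds, more cells of a type and more RNA per cell cannot be told apart.

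Within the regulators the size of the difference varied widely. TDF1, a MYB factor of early tapetum development, was at -8.66 and -8.73 on arrays 1 and 2, neither well above background, and at -2.92 and -2.98 on arrays 3 and 4. That is 53.9-fold higher as measured, a size left uncertain by the dim pair. MS1, a PHD-finger regulator of late tapetum and pollen wall formation, was at -7.06 and -6.94 on arrays 1 and 2 and at -1.73 and -1.73 on arrays 3 and 4, a difference of 5.27. AMS, the bHLH factor that acts between them, differed by 1.41, and the bHLH factors BHLH010 and BHLH091 by 1.69 and 1.34. SPL and EMS1, which act earlier in forming the anther cell layers, differed by 0.66 and 0.69.

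The pollen wall enzymes were likewise uneven. The polyketide synthases PKSB and PKSA, which build sporopollenin precursors, differed by 4.92 and 3.10. A6, a glucanase-like tapetum protein, differed by 3.07 and the fatty acid hydroxylase CYP703A2 by 2.58. The companion hydroxylase CYP704B1 differed by 0.53, and NEF1 and RPG1, both needed for the pattern of the pollen wall, by -0.06 and 0.12. Of the coat and secreted proteins, ATA1 differed by 3.26, the extracellular lipase EXL5 by 3.18 (1.81 after normexp) and a model of ATA20 by 2.11. These too were uneven, with LTP12 at 1.71, GRP19, GRP18 and GRP20 at 0.87, 0.56 and 0.49, and CEP1 at -0.06.

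Beyond these lists, 314 of the 324 models remained, 71 of them with a locus code. Several of the 71 are known from the tapetum or the pollen wall in A. thaliana. The largest lower bound under the naming rule was that of AT2G42940, the AT-hook protein TEK, which is needed there for the nexine layer of the pollen wall. It was at -10.09 and -10.10 on arrays 1 and 2, at 0.78 and 0.82 on arrays 3 and 4, and between -9.80 and -9.41 on the root arrays. The gene was therefore seen on arrays 3 and 4 alone among the 8 arrays, with an approximate bound of 916-fold over arrays 1 and 2.

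AT5G62080, of the lipid transfer protein family, was at -4.87 and -4.84 on arrays 1 and 2 and at -0.40 and -0.41 on arrays 3 and 4. AT1G23760, a polygalacturonase-type wall glycoprotein, was at -5.60 and -5.47 and at -1.21 and -1.33. AT5G55590, the pectin methylesterase QRT1 that frees pollen grains from the tetrad, was at -6.75 and -7.03 and at -3.27 and -3.34. QRT1 was also seen on all 4 root arrays, at -5.42 to -5.12, above bud arrays 1 and 2. These 3 genes were measured on all 4 bud arrays, and their differences were 4.45, 4.27 and 3.59. AT3G23770, a glycosyl hydrolase of the same family 17 as A6, was at the background on arrays 1 and 2 and at -2.73 and -2.87 on arrays 3 and 4, at least 75.4-fold higher.

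Other coded genes higher on arrays 3 and 4 fall outside the naming rule and were picked after their values were seen. Whether they act in the tapetum here was not tested. AT4G20420, a tapetum-specific protein, was at -7.53 and -8.99 on arrays 1 and 2 and at 2.42 and 2.63 on arrays 3 and 4, a difference of 10.79. Of the dim pair, 1 array was well above background. The lipid transfer family member AT5G07230 was bright on all 4 arrays, at -0.67 and -0.74 against 1.54 and 1.52. Pepsin-type aspartyl proteases were AT2G23945, which the rule names, and AT4G30030 and AT5G24820. AT2G23945 was 121-fold higher as measured, with its dim pair not well above background, and the others had bounds of 69.4-fold and 42.8-fold. Root levels set the last of these apart, because AT5G24820 was at -4.21 to -3.58 on the root arrays.

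Other named genes higher on arrays 3 and 4 were also seen on all 4 root arrays. AT2G33220, a B16.6-type subunit of mitochondrial complex I, was at -7.17 and -7.17 on arrays 1 and 2 and at 0.35 and 0.23 on arrays 3 and 4. Its 4 root arrays read 0.94 to 1.32, near the level of bud arrays 3 and 4. The difference of 7.46 was the widest among coded models measured on all 4 bud arrays, and a second probe of the same model gave 7.57.

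AT2G37220, a chloroplast ribonucleoprotein, was at -5.89 and -5.80 on arrays 1 and 2 and at 0.27 and 0.29 on arrays 3 and 4. AT2G36240, a pentatricopeptide repeat protein, was at -7.54 and -7.67 and at -2.80 and -2.69, with roots at -3.58 to -3.08. AT2G47300, a POP1-type subunit of ribonuclease P, was at -1.81 and -1.86 and at 2.14 and 2.08, with a mean root level of 0.75. In all 3 the mean root level lay between the pairs, and none belongs to a tapetum list.

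The same held for AT2G32960, a dual-specificity phosphatase of the PFA type, with a difference of 3.88 and roots at -3.39 to -2.39. AT2G25440, the receptor-like protein RLP20, differed by 4.00, with a mean root level of -4.59. AT2G39310, a jacalin-type lectin, was at -10.02 and -10.01 on arrays 1 and 2 and at 0.07 and 0.13 on arrays 3 and 4, at least 563-fold higher. Its roots read -1.52 to 0.37, so the gene was seen on 6 of the 8 arrays and missing from bud arrays 1 and 2.

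AT1G18960, a MYB-like protein, and AT1G30760, a berberine-bridge-type oxidase, completed the named genes measured on all 4 bud arrays, beside AT2G39470 described further on. AT1G18960 differed by 5.01 and its roots, at -7.32 to -5.64, lay near bud arrays 1 and 2. AT1G30760 differed by 3.61, and its roots, at 0.18 to 0.79, lay above all 4 bud arrays.

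**Figure D2:**
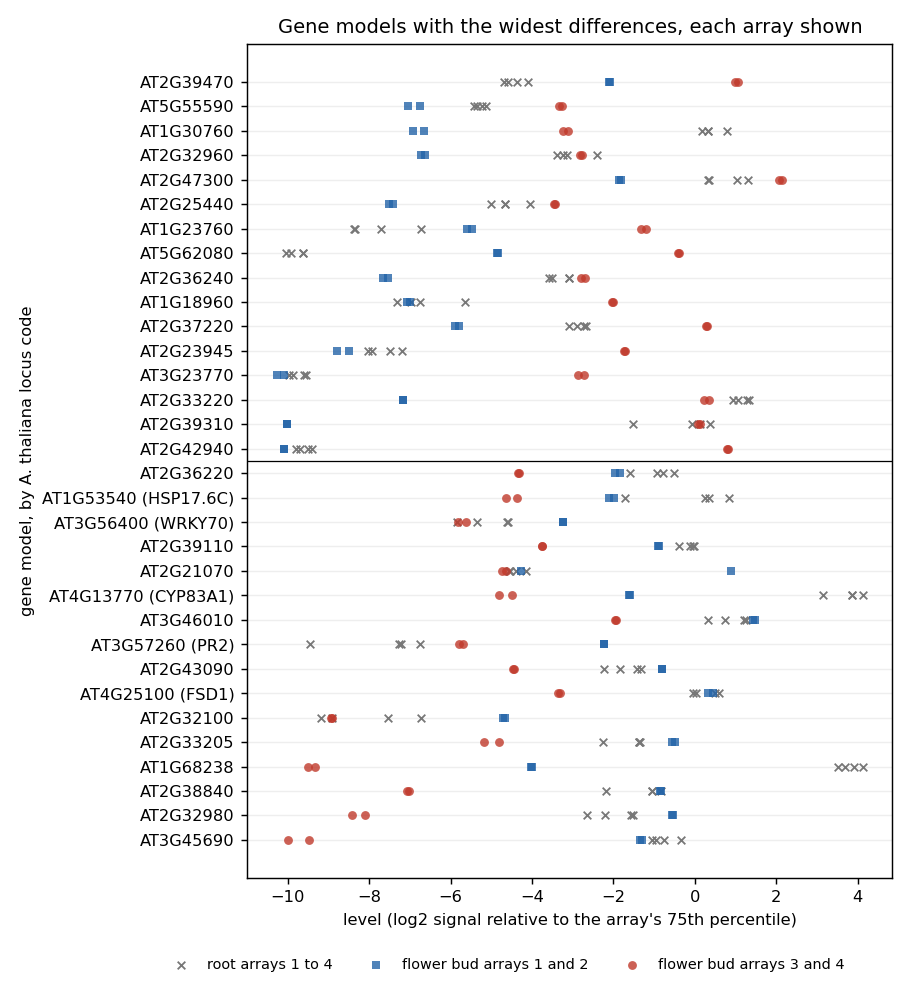
Level of 32 coded gene models outside the tapetum lists on each of the 8 arrays, as log2 signal relative to the 75th percentile of the array. Those above the line were higher on flower bud arrays 3 and 4, those below it on arrays 1 and 2. Symbols of a pair lie close together apart from AT2G21070, which is high on bud array 2 alone, and the root arrays (crosses) lie near the higher pair for many genes, such as AT2G33220 and AT2G38840.

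The genes higher on arrays 1 and 2 were of other kinds. The widest with a locus code and measured on all 4 bud arrays was AT2G38840, of the guanylate-binding protein family, at -0.85 and -0.83 on arrays 1 and 2 and at -7.03 and -7.06 on arrays 3 and 4. Its roots read -2.19 to -0.84, close to bud arrays 1 and 2. AT2G33205, a membrane protein with a serinc domain, was at -0.57 and -0.50 and at -5.18 and -4.81, with roots at -2.26 to -1.36. For both genes the roots were thus far above bud arrays 3 and 4.

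AT3G45690, a transporter of the nitrate excretion type, was at -1.35 and -1.29 on arrays 1 and 2 and at -9.98 and -9.48 on arrays 3 and 4, neither well above background, which is at least 177-fold lower. AT2G32980 was at -0.56 and -0.55 and at -8.10 and -8.42. That is 209-fold lower as measured, with neither dim array well above background. Both were plainly seen in roots, at -1.05 to -0.35 and at -2.65 to -1.52. AT1G68238 was at least 27.3-fold lower on arrays 3 and 4, and its roots, at 3.53 to 4.13, were far above either bud pair. AT3G46010, the actin depolymerising factor ADF1, was bright on arrays 1 and 2 at 1.42 and 1.47 and lower at -1.97 and -1.93 on arrays 3 and 4, with roots at 0.31 to 1.24.

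Of 11 iron and copper models, 1 was at least 4-fold higher on arrays 1 and 2 and 1 on arrays 3 and 4, beside 0.497% and 1.25% of all models. FSD1, an iron superoxide dismutase, was at 0.33 and 0.44 on arrays 1 and 2 and at -3.32 and -3.36 on arrays 3 and 4, and its roots at -0.04 to 0.58 were close to arrays 1 and 2. FER4, a ferritin that stores iron, went the other way, at -2.80 and -2.76 and at -0.17 and -0.10. The other ferritins FER2 and FER3 differed by -0.91 and -0.61 and the iron transporter IRT1 by 0.69. The list was drawn up after values were seen, and its median was -0.35.

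Salicylic acid defence genes included 4 of 10 models at least 4-fold higher on arrays 1 and 2, beside 0.497% of all models. The list was also drawn up after values were seen, and nothing is read from its share. PR2, a glucanase induced by pathogens, was at -2.22 and -2.24 on arrays 1 and 2 and at -5.70 and -5.80 on arrays 3 and 4. WRKY70, a transcription factor of this pathway, was at -3.24 and -3.25 and at -5.62 and -5.81, a difference of -2.47 that was -1.69 after normexp. ECS1, a cell wall protein, and HR3, related to the RPW8 resistance proteins, were 8.36-fold and at least 4.15-fold lower on arrays 3 and 4, and the NPR1 interactor NIMIN1 differed by -1.82.

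The upstream members of that pathway were nearer to 0. The synthesis gene SID2 differed by -0.39, the exporter EDS5 by -0.41, EDS1 by -0.51 and PBS3 by -0.23, while the regulator CBP60G stood at 0.36. The list median was -1.17. The pathogen defence list had 3 models that could be compared, PR2, PR4 at -0.41 and PAD3. PAD3, the last enzyme of camalexin synthesis, was its member with a difference above 0, at 1.09.

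Aliphatic glucosinolates are sulphur-rich defence compounds made from methionine. All 9 models of a list drawn up after values were seen lay below 0, with a median of -0.90, whereas 49.1% of all models lay above 0. At least 4-fold higher on arrays 1 and 2 were 4 of the 9, beside 0.497% of all models. Because of how the list was drawn up, nothing is read from these counts. CYP83A1, a core enzyme, was at -1.59 and -1.61 on arrays 1 and 2 and at -4.50 and -4.80 on arrays 3 and 4, beneath root levels of 3.14 to 4.13. AT2G43090 and AT2G43100, which encode small subunits of isopropylmalate isomerase, an enzyme of leucine synthesis and of methionine chain elongation, differed by -3.66 and -2.31. BAT5, the carrier of the chain elongation intermediates, differed by -2.56. The sulfotransferase SOT17 differed by -0.90, and SUR1, GGP1 and GSTF11 by -0.43, -0.27 and -0.07.

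Among heat shock genes HSP17.6C, a small chaperone, was at -1.98 and -2.12 on arrays 1 and 2 and at -4.63 and -4.36 on arrays 3 and 4, and 4 of 15 models were at least 2-fold higher on arrays 1 and 2, beside 1.67% of all models. The cytosolic chaperones HSP17.6A and HSP17.6II differed by -1.51 and -1.44 and HSP90.1 by -1.01, whereas HSP18.2 stood at 1.02. The heat factor HSFA2 differed by 0.35, and the list median was -0.27. Of the named remainder, AT2G39110, a receptor-like cytoplasmic kinase, differed by -2.85 and AT2G36220 by -2.44.

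AT2G21070 differed from the others in that a single array made its difference. It read 0.89 on bud array 2 but -4.27 on array 1, -4.64 and -4.73 on arrays 3 and 4 and -4.56 to -4.14 on the roots. Without array 2 the difference was -0.42. AT3G16330, picked for the same feature, read 1.16 on bud array 2 and -2.98 to -2.93 on the other 3 bud arrays. The arrays of a pair lay more than 1 log2 apart in 56 of the 453 models, beside 290 of all 25943, so the 453 disagreed within pairs more often.

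**Figure D3:**
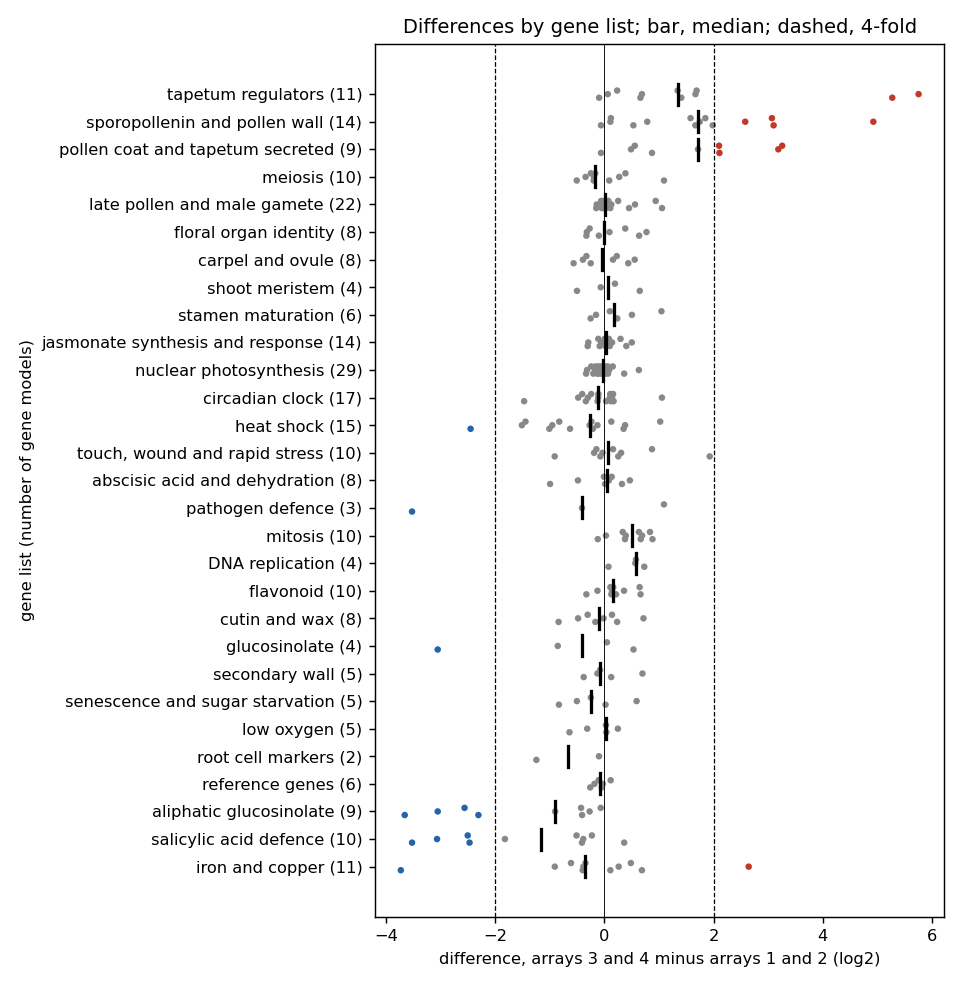
Difference between the pairs, arrays 3 and 4 minus arrays 1 and 2 (log2, x axis), for every gene model of each list (y axis, number of models in brackets). Points are gene models, with values at the background as measured (TDF1 and HR3 among them), bars medians and dashed lines 4-fold. The top 3 lists hold the tapetum and pollen wall genes, with medians of 1.34 to 1.71, and most of the others centre near 0. The last 3 lists were drawn up after values were seen.

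Outside the 3 tapetum lists, 213 models on 23 other lists held 0 that were at least 4-fold higher on arrays 3 and 4 and 3 that were at least 4-fold higher on arrays 1 and 2, namely PR2, CYP83A1 and HSP17.6C. These counts are few, beside 1.25% and 0.497% of all models in those directions, and nothing is read from them. The other 20 lists held neither. Medians of the 23 lists ran from -0.67 to 0.57. The list at the lower end was that of root cell markers, of which 2 models could be compared in buds, CASP1 at -1.24 and COBL9 at -0.10, and 5 were not well above background on either pair.

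Genes of late pollen differed little between the pairs. Over 22 models of mature pollen and the male gamete the median was 0.02. VGD1, which modifies pectin in the growing pollen tube, was at 6.17 and 6.17 on arrays 1 and 2 and at 6.23 and 6.15 on arrays 3 and 4, and SKS13 differed by 0.02. The 2 pollen transcription factors MYB101 and DUO1 differed by 1.06 and 0.94. Genes of meiosis, with 10 models, had a median of -0.18, with SWI1, which acts at the entry into meiosis, at 1.09. The median level of this list was -5.37 to -5.13 on the bud arrays and -4.97 to -4.47 on the root arrays. The list therefore cannot show whether the pairs differed in meiotic cells. SWI1 itself had a mean root level of -5.30, above its means of -7.81 and -6.72 on the bud pairs.

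Floral organ identity genes had a median of 0.00 over 8 models, with the ovule gene STK at 0.77 as the widest. Carpel and ovule genes had a median of -0.05 over 8 models, with BEL1 at -0.56, and 4 shoot meristem genes had 0.06, with CUC3 at 0.65. Stamen maturation genes had 0.17 over 6 models, with MYB26, needed for the opening of the anther, at 1.04. The 29 nuclear photosynthesis genes had -0.03 and the 6 reference gene models -0.08. The markers of floral organs and green tissue thus differed little between the pairs.

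Cell division genes leaned towards arrays 3 and 4 without reaching 4-fold. Of 10 mitosis models 9 lay above 0, beside 49.1% of all models, with a median of 0.51 and CYCB1;2 at 0.88. The 4 DNA replication models had a median of 0.57, with MCM5 at 0.73. The 17 clock genes had a median of -0.11. The evening gene ELF4, whose model is named for scaffold 301, was at 3.13 and 3.15 on arrays 1 and 2. On arrays 3 and 4 ELF4 was at 1.74 and 1.61, while the morning gene LHY differed by 1.05. The other clock genes ran from -0.48 for COL1 to 0.17 for PRR3, with TOC1 at -0.12, LUX at 0.03 and PRR9 at -0.34. Touch and wound genes had a median of 0.06 over 10 models, with the calmodulin-like CML38 at 1.93, and 14 jasmonate genes had 0.03, with VSP2 at 0.50.

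The remaining lists gave medians of 0.05 for abscisic acid and dehydration, 0.15 for flavonoid synthesis, -0.09 for cutin and wax and -0.40 for the shorter glucosinolate list. They gave -0.08 for the secondary wall, -0.25 for senescence and sugar starvation, 0.03 for low oxygen and -0.41 for the 3 models of pathogen defence. Whether any of these groups bears on the genes that separate the pairs was not tested.

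A feature that the choice of genes did not use was the scaffold of the genome that each gene model is named for. The number and the serial order come from the model names and are not coordinates. Scaffold 4 held 112 of the 453, which is 3.86% of its 2900 models, whereas scaffolds 1 to 3 and 5 to 8 held 1.00% to 1.62% each and together 302 of 22254 (1.36%). Scaffold 4 therefore had 11.2% of all models but 24.7% of those at least 4-fold apart, in both directions, with 70 higher on arrays 3 and 4 and 42 on arrays 1 and 2.

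The excess was not limited to wide differences. The median absolute difference between the pairs was 0.23 on scaffold 4 and 0.16 over the other models. Among models with a locus code scaffold 4 held 36 of 1290 (2.79%), and the other 7 large scaffolds 0.498% to 0.992%. Among models well above background on all 4 bud arrays the shares were 2.22% on scaffold 4 and 0.681% elsewhere. After the normexp background correction they were 1.86% and 0.508%.

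The difference between scaffolds appeared across the bud pairs and not between other arrays. In the 4 comparisons of an array of one bud pair with an array of the other, 3.55% to 3.86% of scaffold 4 models and 1.39% to 1.75% of the others were at least 4-fold apart. Between bud arrays 1 and 2 the shares were 0.138% and 0.0651%, and between arrays 3 and 4 they were 0.103% and 0.226%. Root arrays 1 and 4, which differed from each other as much as the bud pairs did, gave 2.07% on scaffold 4 and 1.97% elsewhere. Over all 6 root comparisons the share on scaffold 4 was 0.0690% to 2.07% and elsewhere 0.247% to 1.97%.

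Along scaffold 4 the differences were not even. The 1273 models there with an AT2G code follow the order of A. thaliana chromosome 2, with a rank correlation of 0.998 between serial and code, given as a description across genes. The models with codes below AT2G30000 had a median absolute difference of 0.17, and 18 of 397 (4.53%) were at least 2-fold apart. From AT2G30000 on it was 0.27, and 88 of 876 (10.0%) were at least 2-fold apart, beside 5.66% of all models. The split at that code was chosen after the values were seen.

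Each of the 8 large scaffolds was also divided by serial order into 10 sections with equal numbers of coded models. The first 3 sections of scaffold 4 had a median absolute difference of 0.16 to 0.18 and the last 7 had 0.22 to 0.32. The 70 sections of the other scaffolds had 0.10 to 0.22. Of the 7 sections with the widest medians among all 80, 6 belonged to scaffold 4, and the other was section 5 of scaffold 2 with 0.22.

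**Figure D4:**
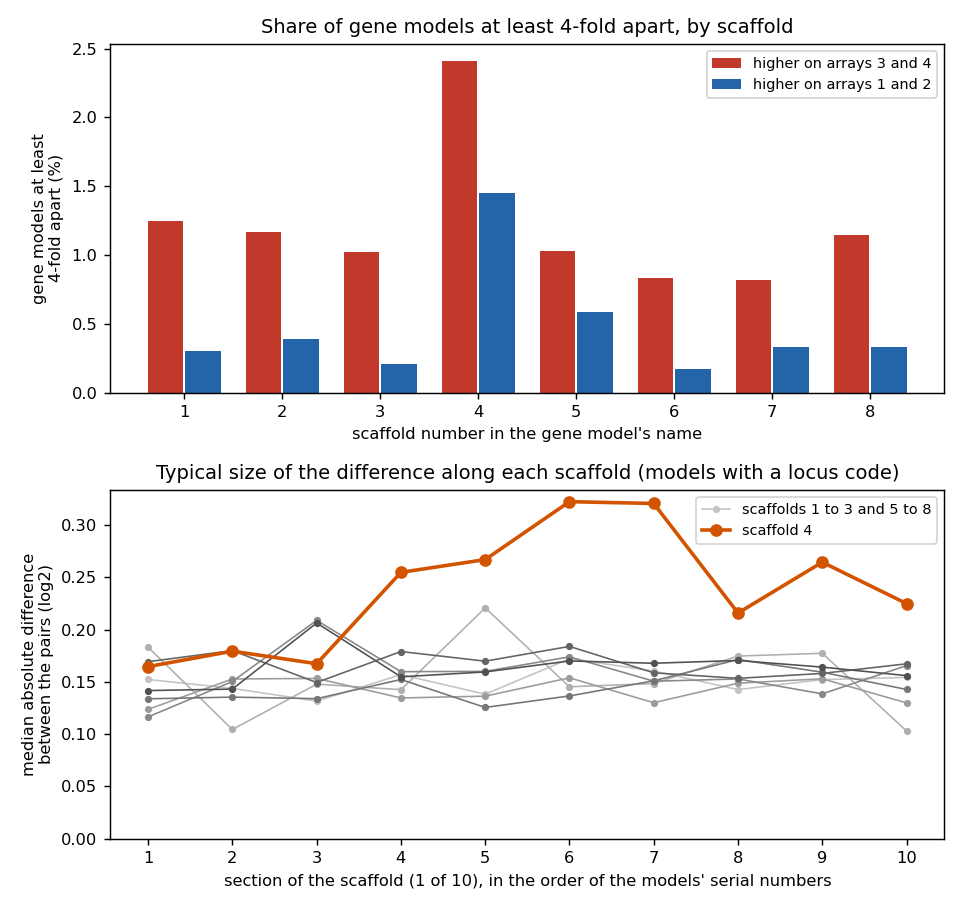
Top, percentage of gene models at least 4-fold apart between the bud pairs on each of the 8 large scaffolds, by direction. Bottom, median absolute difference between the pairs (log2) in each of 10 sections of a scaffold, over models with a locus code. Scaffold 4 stands above the others in both directions, and its line leaves those of the other scaffolds from section 4 on.

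Neighbours on scaffold 4 could go opposite ways. AT2G33205, with a difference of -4.46, and AT2G33220, with 7.46, have the serials 1316 and 1318. AT2G43090 and AT2G43100 have the serials 2470 and 2471 and both were higher on arrays 1 and 2. Further on the same stretch were POLD2 (AT2G42120), a subunit of DNA polymerase delta, with 2.74, the jasmonate repressor JAZ7 (AT2G34600) with 2.78, and FER4 (AT2G40300) with 2.64, all 3 picked after their values were seen.

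Small scaffolds, with numbers above 8, held 39 of 789 (4.94%). Among their models with a locus code, those with an AT2G code held 5 of 49 (10.2%) and those with other codes 2 of 126 (1.59%). The 5 were AT2G36240 on scaffold 53, AT2G32100 on scaffold 103, AT2G32980 on scaffold 120, AT2G39470 on scaffold 463 and AT2G34700 on scaffold 731.

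Some locus codes belong to more than 1 gene model, and 5 such codes had at least 1 model among the 453. For AT2G32100, an OVATE family protein, the scaffold 103 model was at -4.67 and -4.70 on arrays 1 and 2 and at -8.95 and -8.91 on arrays 3 and 4, at least 16.5-fold lower. After normexp its difference was -1.82. The scaffold 4 model of the same code was at -9.82 and -9.43 on arrays 1 and 2 and at -5.70 and -5.73 on arrays 3 and 4. The 2 models were thus each seen on a different pair.

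AT2G39470, a subunit of the chloroplast NDH complex, gave a similar picture at a higher level. Its scaffold 463 model was at -2.11 and -2.09 on arrays 1 and 2 and at 0.99 and 1.06 on arrays 3 and 4, while its scaffold 4 model was at 1.07 and 1.07 and at -0.67 and -0.77. The models of a code can share sequence, so a probe may take up signal from the other model, and their levels are uncertain to that extent. Both models of AT2G34700, of AT2G39310 and of ATA20 went the same way, with at least 3.42-fold and 4.49-fold for AT2G34700, at least 563-fold and 6.88-fold for AT2G39310, and 4.31-fold and 4.28-fold for ATA20. The first of these bounds is under 4-fold.

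The root arrays took no part in choosing the genes, but the choice by bud levels bears on how root and bud levels compare. On the 4 root arrays, 199 of the 453 (43.9%) were well above background throughout and 196 (43.3%) on none, beside 85.2% and 9.41% of all 25943 models. The share seen on all 4 root arrays was 36.1% for those higher on arrays 3 and 4 and 63.6% for those higher on arrays 1 and 2. It was 66.1% for those on scaffold 4, with 74 of 112, and 36.7% for the others, with 125 of 341. The 453 were also dimmer in buds, with median levels of -6.96 on arrays 1 and 2 and -5.38 on arrays 3 and 4. For all models these were -1.30 and -1.27. On the higher pair the median was -4.78 for those higher on arrays 3 and 4 and -3.32 for those higher on arrays 1 and 2. The part of level in these root shares was not tested.

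For 145 of the 199 genes seen on all root arrays, the mean root level was nearer to the higher than to the lower bud pair (72.9%, beside 54.8% of all models seen on all root arrays). On scaffold 4 the root level was within 4-fold of the higher bud pair in 46 of 74, and elsewhere in 51 of 125. It lay at least 4-fold above the higher bud pair in 56 of all 453. These were 29 of the 324 higher on bud arrays 3 and 4 and 27 of the 129 higher on arrays 1 and 2, a larger share of the latter. For these counts against the root level no share over all models was taken, and nothing is read from them. A root level near the higher pair was largely set by the choice of genes. A model dim on both bud pairs could not enter, and a root level well above background can hardly lie near a bud pair at the background. The 54.8% covers models whose bud pairs mostly differ little, so nothing is read from the contrast with 72.9%.

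**Figure D5:**
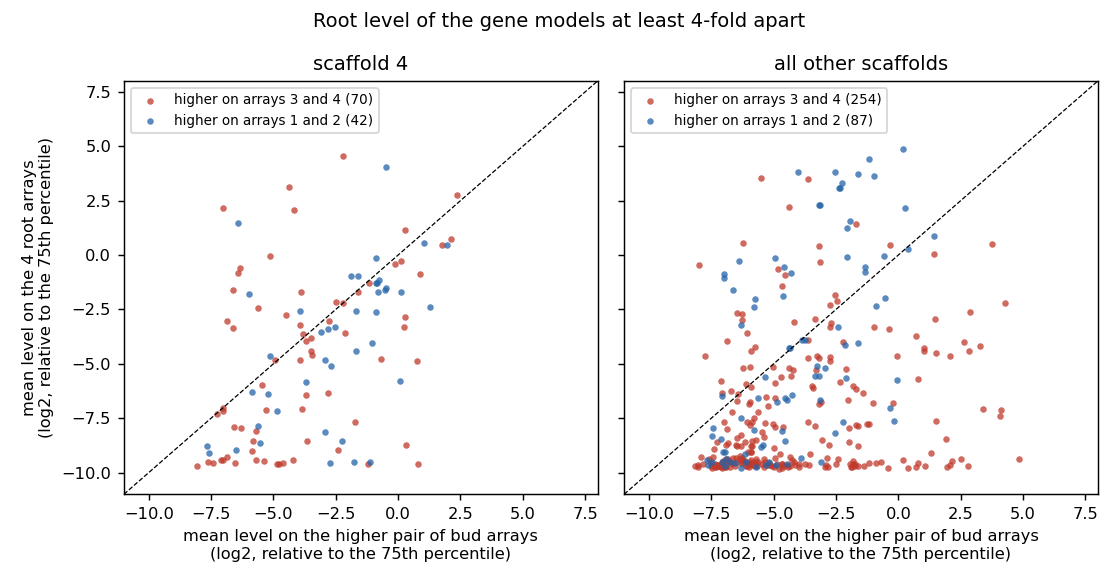
Mean level on the 4 root arrays (y axis) against the mean level on the higher pair of flower bud arrays (x axis) for the 453 gene models, as log2 signal relative to the 75th percentile. Points on the dashed line have equal levels, and points near -9.5 on the y axis lie at the root background. Scaffold 4 genes (left) gather nearer to the line, while many genes of the other scaffolds (right) lie at the root background. The genes were chosen by their bud levels, so nothing is read from this contrast.

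Second probes and repeated spots show how far the sizes repeat on the arrays. In 8 models among the 453 a second probe could be compared, and it went the same way in 8 and was at least 4-fold apart in 7. For MS1 the probes gave 5.27 and 5.40. They were furthest apart for fgenesh1_pm.C_scaffold_2000241, with 3.03 and 3.51, and for AT2G42220 they gave 2.03 and 1.92, on either side of the threshold. Of 340 models whose probe had at least 2 spots, the median SD between spots of an array was 0.101 (log2), and 58 had an SD over 1. When the array was cut into 4 equal parts by its middle row and column, the parts held 244, 197, 216 and 185 of the 842 spots of the 453, beside 24.9% to 25.2% in each part for all models.

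Models without a locus code made up 333 of the 453, so that 26.5% of them had a code beside 43.9% of all 25943. An example picked for its size is scaffold_402700.1 on scaffold 4, at -10.24 and -10.23 on arrays 1 and 2 and at 0.94 and 0.79 on arrays 3 and 4, at least 961-fold higher, with roots at -1.26 to -0.38. No function can be given for these from the files.

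At the threshold itself the values ran on without a gap. The 3 models just inside it were scaffold_102210.1, AT1G73050 and fgenesh1_pm.C_scaffold_4000079 with 2.00, 2.01 and 2.01, and just outside were AT5G63240, Al_scaffold_0006_2660 and scaffold_201467.1 with 2.00 each. On the other side scaffold_602364.1, Al_scaffold_0001_1541 and AT3G05260 were 4.01-fold, 4.03-fold and 4.03-fold higher on arrays 1 and 2. Just outside were scaffold_703762.1, AT2G33270 and scaffold_601035.1 with -1.98 each.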

How the data were processed

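Spot intensity values of 1 colour came from Agilent Feature Extraction 10.10.1.1, which had subtracted the background and removed spatial trends, per the file headers; no normalization between arrays is recorded there. Marks for outlying spots and spots well above background, and the raw median intensity of spot and local background, were also used, per the file headers. Each file listed 62976 features, and 12 to 88 leftover lines at its end were left out. The authors' deposited table held log2 values that matched log2 signal minus the 75th percentile, centred per probe (r of 1.00 on every array); its column medians were 0.02, -0.05, 0.06 and 0.08 for roots and -0.04, -0.05, -0.02 and 0.06 for buds. Scale, centring and direction of that table rest on this match alone, and it served as an alternative.

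The log2 of each spot was taken and each array was set to the 75th percentile of its non-control spots. Outlier spots were then left out, and the log2 values of the spots of each probe were averaged. Of 32863 probes 15 were dropped. A model with 2 probes (477 models) took the values of the brighter probe, by the mean over the bud arrays. A probe was well above background where at least 0.5 of its spots were. Spots well above background were 78.9% to 80.5% on bud arrays, whose 75th percentile was 4803 to 5118, and 0 spots were saturated. The number of arrays limits the precision. A lower bound sets a dim array to the higher of its own signal and the lowest signal well above background. Where its own signal is the higher, the bound equals the fold as measured and is not a strict limit. Elsewhere it is not strict either, because some probes above that lowest signal were not called. An example is AT5G63240, at -8.09 on bud array 1, where the lowest level well above background was -9.06.

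Samples were grouped by the labels, which give tissue and replicate number; the pairs came from the data. No test was run, because each pair was counted as 1 sample. The genes, lists and alternatives were chosen with earlier results of these data known. The lists for aliphatic glucosinolates, salicylic acid defence, and iron and copper, and 3 alternatives (without scaffold 4, pairs within 1 log2, lower bounds), were added after seeing values. Named genes were, per direction, the 12 widest coded models measured on all 4 bud arrays and the 4 widest bounds, tapetum lists apart, up to 2 models per list and direction, and the 3 on each side of the threshold. The normexp alternative (limma 3.58.1 in R 4.3.3, offset 50) used the median spot signal. Other steps used Python 3.11.15 with pandas 2.3.3, numpy 2.4.6 and, for figures, matplotlib 3.10.9. The counting steps were tested on simulated data.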

Additional observations from a re-analysis of the deposited data

Results flagged for a closer look

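Of 192 sets of 4 arrays examined for a single array far from the other 3, 13 stood out, beside about 9.6 that chance alone would give, and chance picks out about 1 in 20. Root array 4 was the odd array in 9 of them. It had the lower level for AT2G33205 (-2.26, others -1.38 to -1.36), scaffold_601035.1 (2.43, others 3.65 to 3.79), CUC3 (-5.41) and ELF4 (-4.23), and the higher level for CASP1 (4.08, others 3.20 to 3.33). It also had the lower list median for jasmonate (-2.30), glucosinolate (-1.92) and low oxygen genes (-1.89, others 1.21 to 1.73) and the higher one for clock genes (-0.67).

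Root array 3 was low for AT5G63240 (-9.21), and root array 1 for AT2G38840 (-2.19, others -1.05 to -0.84) and for the median of stamen maturation genes (-5.33). The single case among the bud arrays was AT2G21070, at 0.89 on array 2 and -4.73 to -4.27 on the other 3. Root levels of these genes enter no difference between the bud pairs.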

How the results depend on the processing

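The main counts were 324 models higher on arrays 3 and 4 and 129 higher on arrays 1 and 2. Scaling by the median, by spike-ins or by quantiles, keeping outlier spots, the authors' values, all probes, no filter, leaving out scaffold 4, requiring pairs within 1 log2 and using lower bounds gave 254 to 445 and 87 to 152. Quantile normalization had the most even split, 265 and 152. Normexp gave 117 and 54, all 171 of them among the 453, and the cause was not tested. The stricter filter, well above background on all 4 arrays, gave 147 and 65, a 2-fold threshold 1036 and 432, and an 8-fold threshold 129 and 55. Leaving out each array gave 310 to 730 and 129 to 166. The 730 came without array 3, where the filter rests on array 4 alone; with the filter kept, 507 models in both directions were at least 4-fold apart, 440 of them shared with the 453.

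Of 44 named models at least 4-fold apart, 34 stayed so in 10 settings, 10 fell under 4-fold in some and 0 changed direction. Apart from the 6 at the threshold, these were AT2G21070 (-0.42 without array 2) and, after normexp, AT2G32100 on scaffold 103 (-1.82), EXL5 (1.81) and WRKY70 (-1.69). The median of all models moved between -0.05 and 0.03. Medians of the tapetum lists stayed at 1.16 to 1.37, 1.66 to 1.72 and 1.67 to 1.73. No paired analysis was possible because the comparison lies within 1 group and comes from no test. Genes near the background carry the least certain folds.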
